A study of Mus musculus with 12 samples.

Results

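The 40 genes described here encode the antioxidant defence of the cell: the Nrf2 (Nfe2l2) and Keap1 switch, the enzymes that make and use glutathione, the thioredoxin and peroxiredoxin system, catalase and the superoxide dismutases, quinone and carbonyl reductases, and the enzymes that break down haem. They were chosen by name, as the rows whose Ensembl ID carries the listed symbol in the GENCODE M21 annotation, and all 40 listed symbols were found among the 23438 genes of the deposited table. The values are TPM, a gene's length-corrected share of the transcripts of a library, scaled to a fixed total. RNA came from macrophages grown from mouse bone marrow (BMDMs) and collected on day 7 of differentiation. All mice were C57 animals described as atherosclerotic. The groups were 7 wild-type (WT) libraries and 5 libraries labelled Baf60a KO, in which the gene for a SWI/SNF chromatin remodelling subunit, Smarcd1, was targeted. The labels used here give neither the age of the mice, the agent or diet behind the atherosclerosis, the way the gene was deleted, nor whether each library came from its own mouse. The p-values therefore measure the spread between libraries, which may be partly technical.

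The labels and the whole libraries were checked before the members. Smarcd1 (ENSMUSG00000023018) was at 15.6, 11.6, 12.9, 12.9, 12.9, 14.7 and 14.7 TPM in WT replicates 1 to 7 and at 5.99, 6.90, 6.92, 7.58 and 7.12 TPM in KO replicates 1 to 5, so the KO libraries lay below all WT libraries and kept a part of the transcript (log2 fold change -0.88, adjusted p 0.00074 by limma with 12 libraries). WT replicates 2, 3 and 4 stood apart from the other 9 libraries and are called the 3 set-apart WT libraries below, with values in that order. Their 12 markers of fibroblasts and smooth muscle, none of them at 0, summed to between 4288 and 11133 TPM, against 122 to 468 TPM in WT replicates 1, 5, 6 and 7 and 207 to 660.3 TPM in KO. Their 10 neutrophil markers summed to 151 to 174 TPM, with Retnlg at 0 in WT replicates 2 and 3. WT replicates 1, 5, 6 and 7 held 1202 to 1557 TPM and KO 1013 to 6268 TPM, with KO replicates 1 and 4 highest at 6268 and 4382 TPM. Among these 10, Mmp8 went the other way, at 65.6 to 72.2 TPM in the 3 set-apart WT libraries and 8.19 to 11.4 TPM in the rest of WT. The macrophage markers Adgre1 and Cd68 were present in all 12 libraries, at 371 to 653 TPM and at 1120 to 1718 TPM. Of the 12 macrophage markers, the 11 other than Lyz2 summed to 11293 to 13894 TPM in WT replicates 1, 5, 6 and 7, to 11099 to 11736 TPM in KO and to 3820, 5499 and 2677 TPM in the 3 set-apart WT libraries. In those 3 libraries Csf1r, Cd14, Fcgr1, Cx3cr1, C1qa, C1qb and C1qc lay below WT replicates 1, 5, 6 and 7. Adgre1, Cd68, Itgam and Mertk overlapped between these 2 sets of WT libraries. Lyz2, which encodes lysozyme, was at 14635 to 16912 TPM in WT replicates 1, 5, 6 and 7, at 4932 to 5853 TPM in KO and at 16587, 21547 and 5232 TPM in the 3 set-apart WT libraries. It thus separated KO from WT replicates 1, 5, 6 and 7, while the sum of the other 11 overlapped. Among those 11, C1qc was also lower in every KO library, at 1611 to 1675 TPM against 1850 to 2246 TPM. Cd14 was higher in every KO library, and the rest overlapped. Every result is therefore given with all 12 libraries and with the 9 libraries left without WT replicates 2, 3 and 4. In a bulk sample, fewer cells of a type and less RNA per cell cannot be told apart.

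Nrf2 is a transcription factor that Keap1 binds and marks for destruction in unstressed cells. Oxidants and electrophiles modify Keap1, and Nrf2 then accumulates, pairs with small Maf proteins and binds antioxidant response elements near genes for glutathione synthesis, conjugation, thioredoxin reduction and NADPH supply. Glutathione and thioredoxin are the main thiol reductants of the cytosol, and both are kept reduced by NADPH. In macrophages these systems meet oxidants from the phagocyte oxidase, oxidised lipoproteins and haem taken up with red cells.

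The core of the antioxidant response element can be written TGACNNNGC, and its reverse complement is GCNNNGTCA. RefSeq promoters on GRCm38.p6, which cover 250 bases before to 50 bases after a start, were found for 34 of the 40 genes, with 43 starts in all. Either orientation of the core occurred in 10 of the 43 (23.3%), against 12.4% of all 32851 promoters of the same length. By gene it occurred in 10 of the 34 (29.4%), against 14.0% of all 27025 genes with a promoter. The shorter AP-1 motif TGACTCA, or TGAGTCA on the other strand, can overlap the core and did so in Prdx1 and Me1. With or without overlap, it occurred in 5 of the 43 member promoters (11.6%), against 5.2% of all promoters. A match describes letters in a window and is not evidence of binding. The 5 sequences below were picked by hand among the 10 genes with a match, so they do not show which members carry the core. Gclm, Gsta3 and Txnrd1 fell in KO macrophages without the 3 set-apart WT libraries, and Prdx1 and Me1 were abundant or high in those 3 libraries. Of the other members that fell, Blvrb, Cbr2, Cat, Prdx5 and Sqstm1 had no match and Gclc had no promoter entry. Nqo1, high in the 3 set-apart WT libraries, also had no match. Each is read 5′ to 3′ on the strand of its gene, with the core in capitals.
Gclm, the 250 bases before the start, chr3:122245307-122245556, plus strand: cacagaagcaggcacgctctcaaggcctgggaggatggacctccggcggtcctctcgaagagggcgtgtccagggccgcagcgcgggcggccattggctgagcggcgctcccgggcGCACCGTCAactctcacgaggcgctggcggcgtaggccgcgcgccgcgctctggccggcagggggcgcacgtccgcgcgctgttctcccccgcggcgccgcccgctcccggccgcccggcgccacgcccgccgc
Gsta3, the 250 bases before the start, chr1:21240335-21240584, plus strand: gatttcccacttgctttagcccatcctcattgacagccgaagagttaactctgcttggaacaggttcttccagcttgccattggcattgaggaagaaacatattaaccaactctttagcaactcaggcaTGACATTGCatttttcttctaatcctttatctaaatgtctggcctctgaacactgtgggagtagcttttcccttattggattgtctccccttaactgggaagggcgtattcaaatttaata
Txnrd1, 79 bases upstream of an internal start, chr10:82859079-82859157, plus strand: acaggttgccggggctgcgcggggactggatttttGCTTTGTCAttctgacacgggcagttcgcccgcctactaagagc
Prdx1, 79 bases upstream of the start, chr4:116685431-116685509, plus strand: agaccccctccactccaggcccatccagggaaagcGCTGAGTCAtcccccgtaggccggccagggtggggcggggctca
Me1, 61 bases around the start, chr9:86695895-86695955, minus strand: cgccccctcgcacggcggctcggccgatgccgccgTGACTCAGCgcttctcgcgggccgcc
The core began 134 bases before the start in Gclm, 121 in Gsta3, 92 in Txnrd1, 133 in Prdx1 and 6 in Me1. The remaining matches were in Nfe2l2, Srxn1, Sod1, Mgst1 and Blvra.

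At baseline the antioxidant genes spanned nearly the whole range of expressed genes. By the median of the 7 WT libraries, 3 members stood among the 100 most abundant genes, 11 among the first 500 and 31 among the first 5000. Hmox1, which encodes the haem oxygenase that opens the haem ring, ranked 33 at a median of 2668 TPM. Prdx1, a cytosolic peroxiredoxin, ranked 50 at 2169 TPM, and Esd, the S-formylglutathione hydrolase, ranked 55 at 2019.7 TPM. The sensor genes were moderate, with Nfe2l2 at rank 1633 (85.8 TPM) and Keap1 at rank 3625 (37.2 TPM). At the low end lay Nqo1, the quinone reductase used widely as an Nrf2 target, at rank 10087 (2.46 TPM), and Gsta4, a transferase for lipid aldehydes, at rank 12172 (0.30 TPM). These ranks pool WT libraries that differ: Nqo1 ranked 10012 to 10392 in WT replicates 1, 5, 6 and 7 and 2153 to 3510 in the 3 set-apart WT libraries, and Gsta3 ranked 6595 to 8388 and 413 to 758. In each of WT replicates 1, 5, 6 and 7 there were 3 members in the first 100, 11 in the first 500 and 31 in the first 5000. The 40 genes together made up 1.28 to 1.46% of the listed TPM in WT replicates 1, 5, 6 and 7, 2.22 to 2.66% in the 3 set-apart WT libraries, and 1.21 to 1.31% in KO.

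**Figure D1:**
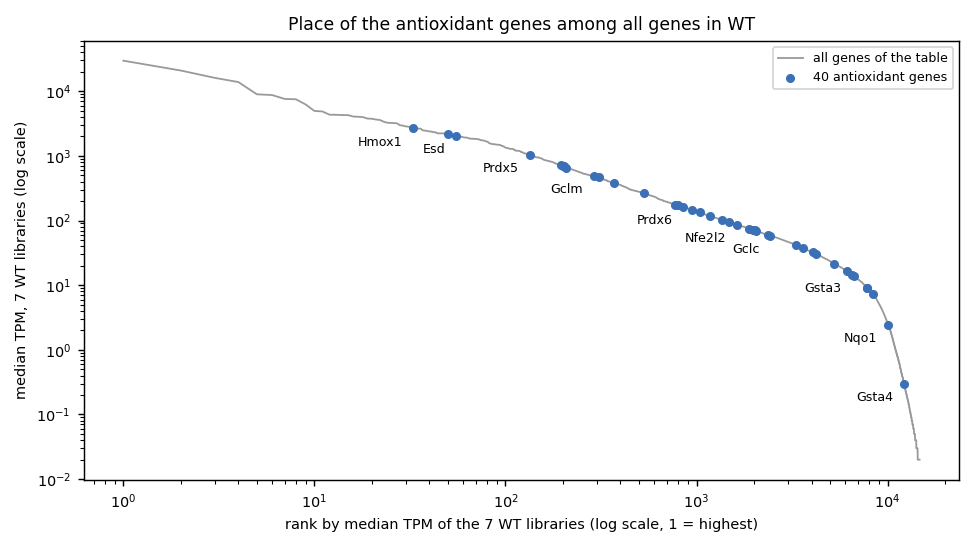
Median TPM of the 7 WT libraries (vertical log axis) against rank among all genes (horizontal log axis, 1 is the highest), with the grey line for all genes and blue points for the 40 antioxidant genes. The members run from Hmox1 at rank 33 to Gsta4 at rank 12172.

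The comparison of KO with WT asks how macrophage transcripts differ when Baf60a is targeted. Without the 3 set-apart WT libraries, 9 of the 39 tested members fell in KO and 0 rose by limma's test with Benjamini-Hochberg adjustment over all 11152 genes tested, with adjusted p under 0.05 as the threshold. The members that fell were Gclm and Gclc (glutathione synthesis), Gsta3 (conjugation), Txnrd1 (thioredoxin reduction), Prdx5 (peroxide removal), Cat (catalase), Cbr2 (carbonyl reduction), Blvrb (haem breakdown) and Sqstm1 (a Keap1-binding adaptor). These 9 are 23.1% of the members, while 0.717% of all tested genes were called lower and 1.61% higher, or 2.33% in either direction. The split of all calls depended on scaling: 80 genes were lower and 180 higher on TPM, and 133 lower and 73 higher when each library was divided by the median ratio of its genes to their geometric means, which left 10 members lower (the 9 and Cbr3). Of the macrophage markers, Lyz2 and C1qc were lower in every KO library than in WT replicates 1, 5, 6 and 7. Cd14 was higher, at 507 TPM or more in every KO library against 315 to 482 TPM in those WT libraries. The part of these markers in the members' levels was not tested. At an unadjusted p under 0.05 there were 12 members with negative and 5 with positive log2 fold changes, where 18.9% of all genes passed in either direction. Of all 11152 tested genes, 478 passed with negative and 1633 with positive log2 fold changes. The median log2 fold change of the members was -0.08 and that of all tested genes 0.05. With all 12 libraries 1 member, Gclc, fell and 0 rose, where 0.0179% of all genes were called lower, 0.108% higher and 0.126% either way. At an unadjusted p under 0.05 there were then 15 members with negative and 1 with a positive log2 fold change (17.5% of all genes in either direction). Of all tested genes, 359 then passed with negative and 1595 with positive log2 fold changes.

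The member left out of these tests was Gsta4, which stayed under 1 TPM outside the 3 set-apart WT libraries. The other 39 reached 1 TPM in every library, so none entered the test through a single group. All fold changes are log2 differences of KO minus WT on the log2(TPM + 1) scale. Negative values were held by 29 of the 39 with 9 libraries, against 32.5% of all tested genes. With median-ratio scaling they were held by 34 of the 39, against 50.6% of all tested genes. With 12 libraries and no scaling they were held by 35 of the 39, against 42.1%. All KO libraries lay below all 4 remaining WT libraries for 9 members and above them for 3, where 2.08% and 7.09% of all genes did so. Against all 7 WT libraries, KO lay below for 8 members and above for 0, where the shares of all genes were 0.637% and 2.92%.

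**Figure D2:**
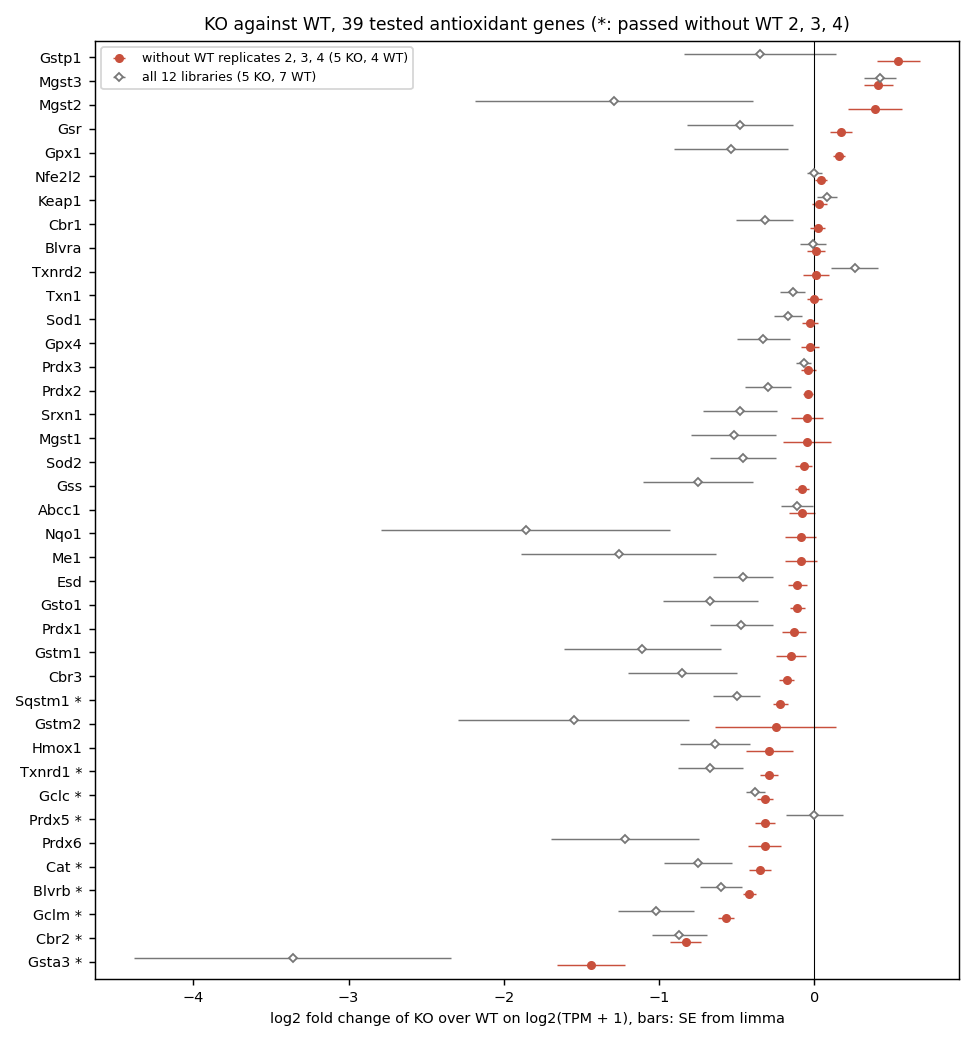
Log2 fold change of KO over WT for the 39 tested members (horizontal axis, bars are limma standard errors), without WT replicates 2, 3 and 4 (red, 5 KO and 4 WT) and with all 12 libraries (grey, 5 KO and 7 WT). The 9 starred members passed the test with 9 libraries, and the 12-library values of Nqo1, Gstm2, Mgst2 and Gsta3 have the longest error bars.

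The count of 9 depended on single libraries. It was 3 without WT replicate 1 or 7 (Gclm, Blvrb and Cbr2), 5 without WT replicate 5 or KO replicate 2, 3 or 4 (those 3 with Gclc and Gsta3), 6 without KO replicate 5 and 7 without KO replicate 1. Calls over all tested genes, in either direction, moved as well. They were 260 in the main fit, 51 and 72 without WT replicate 1 or 7, and 125 without WT replicate 5. Without KO replicates 1 to 5 in turn they were 316, 108, 102, 82 and 245. Among WT replicates 1, 5, 6 and 7, replicate 6 held the lowest value for 28 of the 40 members, while it was the lowest of the 4 for 33.6% of all tested genes. It also held the least fibroblast and smooth muscle marker RNA, at 122 TPM. Without it there were 11 members lower, the 9 with Cbr3 and Prdx6, and 1 higher (Gpx1). Over all tested genes 462 were then called in either direction.

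Neither gene of the sensor pair was called. Nfe2l2 encodes Nrf2 and stood at 81.5 to 86.5 TPM in WT replicates 1, 5, 6 and 7, at 84.1 to 95.8 TPM in the 3 set-apart WT libraries, and at 82.5 to 90.4 TPM in KO. Its log2 fold change was 0.04 ± 0.0383 (SE) with 9 libraries and 0.00 ± 0.0479 with 12, with limma adjusted p-values of 0.647 and 0.955. Keap1, its inhibitor, stood at 37.1 to 39.7, 31.7 to 39.2 and 35.4 to 41.7 TPM in the same 3 sets of libraries (adjusted p 0.793 and 0.445 by limma). The transcript level of a factor that is controlled by protein decay does not measure its activity.

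Sqstm1 encodes p62, an autophagy adaptor that binds Keap1 and is itself a known Nrf2 target (ENSMUSG00000015837, mm10 chromosome 11, 50199366 to 50210827). It was at 659.9, 645, 606 and 656 TPM in WT replicates 1, 5, 6 and 7 and at 521, 546, 538, 538 and 607 TPM in KO replicates 1 to 5. KO replicate 5 overlapped WT replicate 6 by less than 1 TPM. The 3 set-apart WT libraries lay above all others, at 1002, 1045 and 969.6 TPM. The fall without them was -0.22 ± 0.0481 (SE, adjusted p 0.0458 by limma), and the call held in 2 of the 9 cases with a further library left out, those without WT replicate 6 or KO replicate 5 (adjusted p over the 9 cases from 0.0209 to 0.137). With 12 libraries it was -0.50 (adjusted p 0.214 by limma).

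Glutathione is made in 2 steps, and both subunit genes of the enzyme for the first fell in KO. Gclm, the modifier subunit of glutamate-cysteine ligase (ENSMUSG00000028124, chromosome 3, 122245557 to 122270732), was at 486, 449, 405 and 464 TPM in WT replicates 1, 5, 6 and 7. It was at 311, 288, 302, 317 and 297 TPM in KO replicates 1 to 5 and at 1003, 1034 and 791 TPM in the 3 set-apart WT libraries. All KO libraries lay below all WT libraries. The KO mean was 0.672 of the WT mean with 9 libraries, 303 ± 11.6 (SD, n = 5) against 451 ± 34.5 TPM (SD, n = 4). The log2 fold change was -0.57 ± 0.0536 (SE, adjusted p 0.00232 by limma), and the call held whichever further library was left out. With 12 libraries it was -1.02 ± 0.245 and missed the threshold (adjusted p 0.149 by limma).

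Gclc, the catalytic subunit (ENSMUSG00000032350, chromosome 9, 77754535 to 77794485), differed less between the sets of WT libraries. It was at 61.0, 54.6, 52.0 and 57.6 TPM in WT replicates 1, 5, 6 and 7, and at 65.7, 58.4 and 62.1 TPM in the 3 set-apart WT libraries. KO replicates 1 to 5 were at 44.0, 42.2, 46.1, 46.0 and 46.3 TPM, below all 7 WT libraries. Its log2 fold change was -0.38 ± 0.0597 with 12 libraries (SE, adjusted p 0.0413 by limma) and -0.32 ± 0.0513 with 9 (adjusted p 0.0177 by limma). The 12-library call held in 2 of 12 cases with a library left out, those without WT replicate 4 or WT replicate 6, and the adjusted p ran from 0.0234 to 0.164. The 9-library call was lost without WT replicate 1 (adjusted p of 0.0546) and without WT replicate 7 (0.0656). The ratio of Gclm to Gclc transcripts was 7.77 to 8.22 in WT replicates 1, 5, 6 and 7, 12.8 to 17.7 in the 3 set-apart WT libraries, and 6.43 to 7.08 in KO, so the ratio was highest in those 3 libraries and lowest in KO.

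The later steps were not called. Gss, glutathione synthetase, was at 15.0 to 16.5 TPM in WT replicates 1, 5, 6 and 7 and at 14.4 to 15.9 TPM in KO (log2 fold change -0.08, adjusted p 0.409 by limma with 9 libraries). Gsr, the reductase that regenerates glutathione with NADPH, was at 63.7 to 71.7 and 65.0 to 83.7 TPM (0.17, adjusted p 0.245 by limma, and -0.48 with 12 libraries). The 3 set-apart WT libraries held both at much higher levels, with 47.2 to 49.8 TPM of Gss and 179.8 to 206 TPM of Gsr. Their lowest value was 2.86 times the highest of the other 9 libraries for Gss and 2.15 times for Gsr.

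Of the selenium-dependent glutathione peroxidases, neither was called. Gpx1, which reduces hydrogen peroxide, was at 688, 666, 715 and 696 TPM in WT replicates 1, 5, 6 and 7 and at 792, 776, 775, 797 and 720.5 TPM in KO. All KO values lay above these WT values, but the log2 difference of 0.16 ± 0.0382 (SE) did not pass (adjusted p 0.0614 by limma). In the 3 set-apart WT libraries it was at 2162, 2273 and 2039.5 TPM, and with them the sign turned to -0.54 (adjusted p 0.373 by limma). Gpx4, which reduces lipid peroxides in membranes, was at 616 to 705 TPM in WT replicates 1, 5, 6 and 7, 594 to 692 TPM in KO and 917 to 1189.9 TPM in the 3 set-apart WT libraries.

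Glutathione transferases join glutathione to electrophiles, and 1 of the 9 tested genes of this class, the exporter Abcc1 included, fell. Gsta3, an alpha-class transferase (ENSMUSG00000025934, chromosome 1, 21240589 to 21265661), was at 14.6, 11.5, 6.86 and 12.7 TPM in WT replicates 1, 5, 6 and 7 and at 2.47, 3.86, 5.17, 3.44 and 2.77 TPM in KO replicates 1 to 5. No KO library reached the lowest WT library. The log2 fold change was -1.44 ± 0.219 (SE, adjusted p 0.0148 by limma), and it lost the call without WT replicate 1 (0.0542) or WT replicate 7 (0.0554). The 3 set-apart WT libraries held 291, 349 and 193 TPM. Their lowest value was 13.2 times the highest of the other 9 libraries, and with them the log2 fold change was -3.36 ± 1.02 (SE, adjusted p 0.214 by limma).

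Several other transferases separated the 3 set-apart WT libraries from the rest while KO and the other WT libraries overlapped. Gsta4 reached 16.4, 6.59 and 29.7 TPM there, with 0.11, 0.30, 0.09 and 0.07 TPM in WT replicates 1, 5, 6 and 7 and 0.09, 0.44, 0.19, 0.06 and 0.19 TPM in KO. Gstm1, a mu-class transferase, was at 344, 284 and 281 TPM there, 67.3, 65.4, 52.7 and 69.4 TPM in WT replicates 1, 5, 6 and 7 and 50.4, 61.2, 62.7, 51.6 and 60.5 TPM in KO. Gstm2, its neighbour in the same family, was at 84.7, 70.0 and 113 TPM there, 13.1, 13.7, 4.57 and 11.2 TPM in WT replicates 1, 5, 6 and 7 and 3.32, 11.2, 10.8, 6.50 and 12.7 TPM in KO. Neither mu-class gene was called in KO (log2 fold changes of -0.15 and -0.25, adjusted p 0.435 and 0.775 by limma with 9 libraries). Members of a transferase family share sequence, so reads can be divided between them and the level of each is uncertain.

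Transferases of the membrane and the pi and omega classes gave a mixed picture in KO. Mgst1, a microsomal transferase, was at 85.6, 102, 57.5 and 85.6 TPM in WT replicates 1, 5, 6 and 7 and at 67.2, 82.9, 88.8, 68.9 and 84.8 TPM in KO, with log2 fold change -0.05 (adjusted p 0.888 by limma). It stood at 187, 184 and 150.3 TPM in the 3 set-apart WT libraries. Mgst2, which also takes part in leukotriene C4 synthesis, was at 7.08, 7.30, 3.80 and 7.40 TPM in WT replicates 1, 5, 6 and 7 and at 9.40, 7.85, 7.41, 10.4 and 7.63 TPM in KO, and the 3 set-apart WT libraries held 128, 131 and 78.3 TPM. The KO values of Mgst2 lay just above the 4 WT values without passing the test (0.39, adjusted p 0.259 by limma). With all 12 libraries the sign turned to -1.29 (adjusted p 0.379 by limma). Mgst3 was at 38.4 to 46.9 TPM in WT replicates 1, 5, 6 and 7 and 49.2 to 64.6 TPM in KO, a log2 difference of 0.41 ± 0.0927 (SE), just short of the threshold (adjusted p 0.0539 by limma). It was among the 9 members for which the 3 set-apart WT libraries, at 35.9 to 51.8 TPM, overlapped the other libraries.

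Gstp1 was at 42.2 to 70.6 TPM in WT replicates 1, 5, 6 and 7 and 66.7 to 93.6 TPM in KO (log2 fold change 0.54, adjusted p 0.0778 by limma), with 159 to 315 TPM in the 3 set-apart WT libraries and a 12-library value of -0.35. Its highest KO values were those of replicates 1 and 4 (93.6 and 85.0 TPM), followed by replicate 5 (84.9 TPM). KO replicates 1 and 4 also held the most neutrophil marker RNA, and KO replicate 5 held the least of the KO libraries, at 1013 TPM. The 3 set-apart WT libraries held less still, at 151 to 174 TPM. The part of these markers in the result was not tested. Gsto1 was at 84.1 to 94.5 TPM in the 4 WT libraries and 80.1 to 88.0 TPM in KO (-0.11, adjusted p 0.225 by limma). Abcc1, a pump that exports glutathione conjugates, was at 69.6 to 81.0 and 61.9 to 79.6 TPM (-0.08, adjusted p 0.675 by limma).

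In the thioredoxin system the cytosolic reductase fell and its substrate did not pass the test. Txnrd1 (ENSMUSG00000020250, chromosome 10, 82833951 to 82897712) was at 380.0, 375, 309 and 363 TPM in WT replicates 1, 5, 6 and 7 and at 287, 286, 297, 289 and 301 TPM in KO replicates 1 to 5. The KO values spanned a narrow range just below WT replicate 6. The log2 fold change was -0.29 ± 0.058 (SE, adjusted p 0.0388 by limma), but the call held in 1 of 9 cases with a further library left out, that without WT replicate 6, and the adjusted p ran from 0.0021 to 0.119. In the 3 set-apart WT libraries it was at 666, 602 and 736 TPM, and the 12-library value was -0.67 (adjusted p 0.217 by limma). Txn1, thioredoxin itself, was at 462, 456, 399.9 and 465 TPM in WT replicates 1, 5, 6 and 7, at 424, 453, 442, 445 and 455 TPM in KO, and at 546, 552 and 552 TPM in the 3 set-apart WT libraries. Its 9-library log2 fold change was 0.00 ± 0.0483 (SE, adjusted p 0.977 by limma).

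Srxn1, sulfiredoxin, which repairs overoxidised peroxiredoxins, was at 111 to 146 TPM in WT replicates 1, 5, 6 and 7, 110.2 to 142 TPM in KO and 242 to 297 TPM in the 3 set-apart WT libraries. The mitochondrial reductase Txnrd2 went the other way in those 3 libraries, at 20.7 to 23.7 TPM against 29.4 to 39.7 TPM in the other 9. Its KO values overlapped those of WT replicates 1, 5, 6 and 7 (log2 fold change 0.01 ± 0.0865, SE, adjusted p 0.968 by limma).

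Peroxiredoxins use thioredoxin or glutathione to remove peroxides, and 1 of 5 fell in KO. Prdx5, which is found in mitochondria, peroxisomes and cytosol (ENSMUSG00000024953, chromosome 19, 6906697 to 6910106), was at 1048, 1163, 1199 and 1088 TPM in WT replicates 1, 5, 6 and 7 and at 985, 816, 847, 942 and 918 TPM in KO replicates 1 to 5. Unlike the other members called, it was lowest in the 3 set-apart WT libraries, at 736, 738 and 559.5 TPM. Its 9-library log2 fold change was -0.32 ± 0.0636 (SE, adjusted p 0.0361 by limma). The call held only without WT replicate 6 or KO replicate 1 among the 9 cases with a further library left out (adjusted p from 0.0242 to 0.089). With 12 libraries the difference was 0.00 ± 0.183 (adjusted p 0.992 by limma).

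Prdx1, the most abundant of the family, was at 2169, 2139, 1727 and 2043 TPM in WT replicates 1, 5, 6 and 7 and at 1690.2, 1972, 1765, 1799.6 and 2009 TPM in KO. The sets overlapped, with a log2 fold change of -0.13 (adjusted p 0.415 by limma), and the 3 set-apart WT libraries lay above at 3748, 4155 and 2747 TPM. Prdx6, which also has phospholipase activity, was at 109 to 162 TPM in WT replicates 1, 5, 6 and 7 and 101 to 121 TPM in KO (-0.32, adjusted p 0.140 by limma), against 522 to 642 TPM in the 3 set-apart WT libraries. Prdx2 and the mitochondrial Prdx3 each had a 9-library log2 fold change of -0.04 (adjusted p 0.547 and 0.717 by limma).

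Catalase, the peroxisomal enzyme that splits hydrogen peroxide, fell in KO. Cat (ENSMUSG00000027187, chromosome 2, 103453849 to 103485160) was at 172, 169, 144 and 168 TPM in WT replicates 1, 5, 6 and 7 and at 112, 137, 136, 123 and 132 TPM in KO replicates 1 to 5. No KO library reached WT replicate 6, the lowest WT library. The log2 fold change was -0.35 ± 0.0722 (SE, adjusted p 0.0408 by limma), and the call held without WT replicate 6 or KO replicate 1 but in none of the other 7 cases (adjusted p over the 9 from 0.0137 to 0.125). The 3 set-apart WT libraries held 320.2, 337 and 282 TPM, and the 12-library log2 fold change was -0.75 (adjusted p 0.209 by limma). The superoxide dismutases were not called. Cytosolic Sod1 was at 627, 637, 689 and 683 TPM in WT replicates 1, 5, 6 and 7, at 701, 647, 609, 652 and 614 TPM in KO and at 814, 861 and 809 TPM in the 3 set-apart WT libraries. Mitochondrial Sod2 was at 103 to 116, 92.8 to 110.4 and 167 to 238 TPM in the same order.

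**Figure D3:**
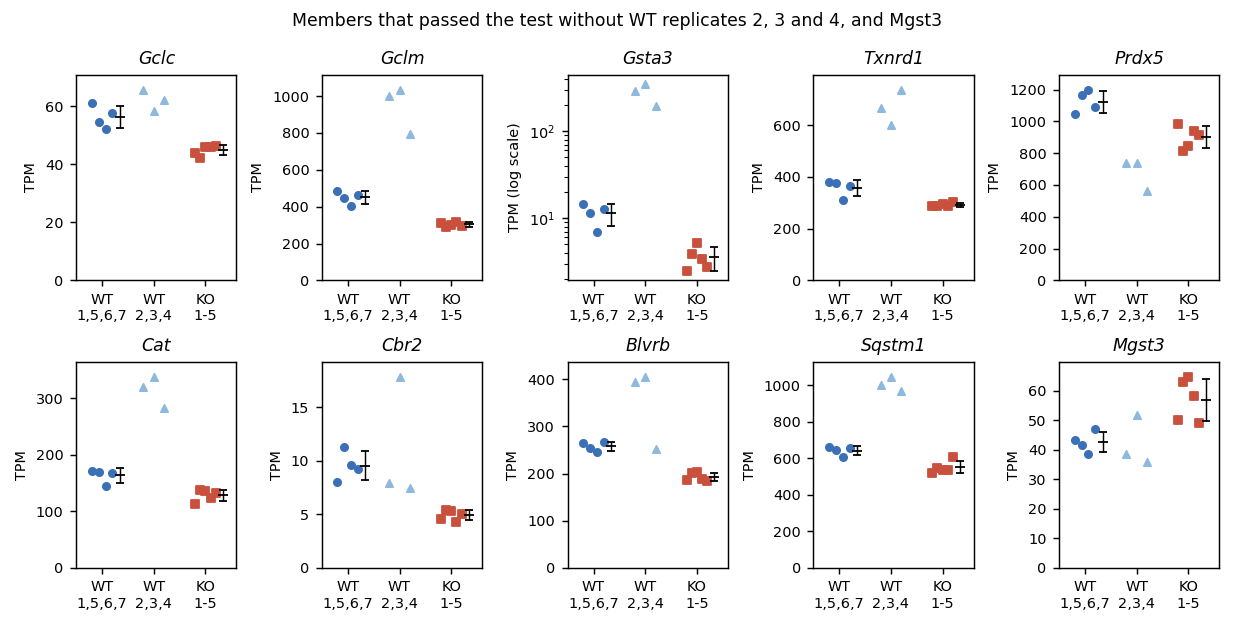
TPM in each library for the 9 members that fell without WT replicates 2, 3 and 4, and for Mgst3 (adjusted p of 0.0539), with bars for mean and SD of WT replicates 1, 5, 6 and 7 and of KO. Gsta3 has a log axis, and WT replicates 2, 3 and 4 lie highest for Gclm, Gsta3, Txnrd1, Cat and Sqstm1 and lowest for Prdx5.

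Among quinone, carbonyl and NADPH enzymes, Cbr2 fell. This lung-type carbonyl reductase (ENSMUSG00000025150, chromosome 11, 120729489 to 120732114) was at 8.03, 11.3, 9.64 and 9.19 TPM in WT replicates 1, 5, 6 and 7, at 7.88, 17.8 and 7.44 TPM in the 3 set-apart WT libraries, and at 4.52, 5.44, 5.29, 4.28 and 5.06 TPM in KO replicates 1 to 5. All KO libraries lay below all 7 WT libraries. The KO mean was 0.516 of the mean of the 4 WT libraries, with a log2 fold change of -0.83 ± 0.097 (SE, adjusted p 0.00544 by limma) that held whichever further library was left out. With 12 libraries it was -0.87 ± 0.177 (adjusted p 0.112 by limma). The carbonyl reductases Cbr1 and Cbr3 were not called: Cbr1 had a log2 fold change of 0.02 (adjusted p 0.888 by limma), and Cbr3 one of -0.18 (0.0926), with 17.4 to 18.7 TPM in KO and 18.7 to 21.6 TPM in WT replicates 1, 5, 6 and 7.

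Nqo1 and Me1, the malic enzyme that makes cytosolic NADPH, overlapped between KO and WT replicates 1, 5, 6 and 7 and were not called. Nqo1 was at 1.86, 2.46, 1.68 and 2.24 TPM in the 4 WT libraries and 2.20, 1.65, 1.76, 1.89 and 1.85 TPM in KO (-0.09, adjusted p 0.684 by limma). In the 3 set-apart WT libraries it was at 55.6, 38.3 and 69.2 TPM, the lowest of which was 15.6 times the highest of the other 9. Me1 was at 9.02, 7.64, 5.71 and 7.22 TPM, then 7.09, 7.25, 6.76, 6.61 and 6.43 TPM in KO (-0.09, adjusted p 0.697 by limma), and 48.8, 39.0 and 83.0 TPM in the 3 set-apart WT libraries. Esd was at 1938, 2019.7, 1669 and 1923 TPM in the 4 WT libraries, 1726, 1682, 1698, 1688 and 1934 TPM in KO, and 3548, 3287 and 3075 TPM in the 3 set-apart WT libraries, with a 9-library log2 fold change of -0.11 (adjusted p 0.382 by limma).

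Of the haem breakdown enzymes, the NADPH-dependent flavin and biliverdin reductase Blvrb fell. Blvrb (ENSMUSG00000040466, chromosome 7, 27447978 to 27466144) was at 265, 255, 246 and 266 TPM in WT replicates 1, 5, 6 and 7 and at 395, 405 and 253 TPM in the 3 set-apart WT libraries. KO replicates 1 to 5 were at 186, 201, 203, 189 and 185 TPM, below all 7 WT libraries. The KO mean of 193 ± 8.76 TPM (SD, n = 5) was 0.746 of the 258 ± 9.24 TPM (SD, n = 4) of the 4 WT libraries. The log2 fold change was -0.42 ± 0.0413 (SE, adjusted p 0.00232 by limma) and stayed called whichever further library was left out, while the 12-library value of -0.60 ± 0.136 did not pass (adjusted p 0.141 by limma).

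The other genes of haem breakdown, Hmox1 and Blvra, were not called. Hmox1 was at 2668, 2319.9, 2027 and 2535 TPM in WT replicates 1, 5, 6 and 7 and at 2565, 1557, 1599, 2180.4 and 1991 TPM in KO, with KO replicates 1 and 4 highest. KO replicates 1 and 4 also held the most neutrophil marker RNA, while KO replicate 5 held the least of the KO libraries and the 3 set-apart WT libraries less still. The part of these markers in the result of Hmox1 was not tested. The log2 fold change of Hmox1 was -0.29 ± 0.149 (SE, adjusted p 0.328 by limma), and the 3 set-apart WT libraries held 4472, 4806 and 3465 TPM. Blvra, the other biliverdin reductase, was at 122 to 144 TPM in the 4 WT libraries and 121 to 142 TPM in KO (0.01, adjusted p 0.950 by limma).

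**Figure D4:**
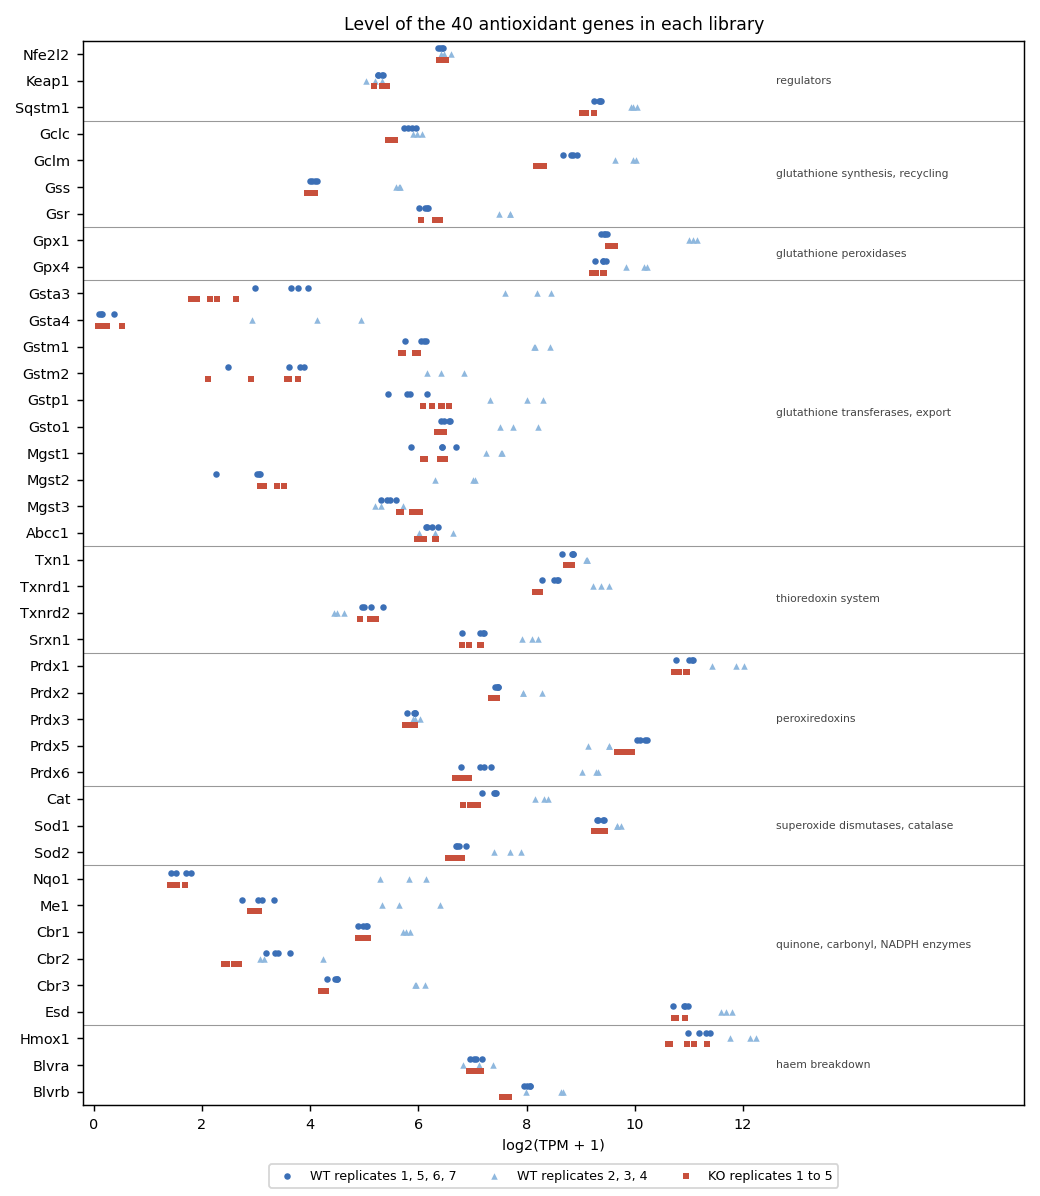
Level of each of the 40 members on the log2(TPM + 1) scale, ordered by class, with circles for WT replicates 1, 5, 6 and 7, triangles for WT replicates 2, 3 and 4 and squares for KO. The triangles lie right of all other points for 29 members and left of them for Txnrd2 and Prdx5.

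The 3 set-apart WT libraries differed from the other WT libraries in most of the members. They were set apart by their measured values, so they are described without a test. All 3 lay above all other 9 libraries for 29 of the 40 members (72.5%) and below them for 2, Txnrd2 and Prdx5. Of the 39 tested members 28 lay above, and among all tested genes 23.6% lay above and 25.5% below. All 3 stood more than 2-fold above the highest of the other 9 for 12 members and more than 4-fold for 7. Without the untested Gsta4 these were 11 and 6 of 39, where 5.17% and 2.27% of all tested genes did so. The 7 were Gsta3, Gsta4, Gstm1, Gstm2, Mgst2, Nqo1 and Me1, of which 5 are glutathione transferases. The 9 members that overlapped were Nfe2l2, Keap1, Gclc, Mgst3, Abcc1, Prdx3, Cbr2, Blvra and Blvrb.

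By class, all KO sums lay below those of WT replicates 1, 5, 6 and 7 for the regulators and for glutathione synthesis and recycling. For the other classes these sums overlapped. The summed TPM of the transferases and Abcc1 was 1481 to 1636 in the 3 set-apart WT libraries, while WT replicates 1, 5, 6 and 7 summed to 371 to 470.4 and KO to 438 to 460.3. The sum of the 2 glutathione peroxidases was 2956 to 3462 TPM in those 3 libraries, 1331 to 1401 TPM in the rest of WT and 1386 to 1462 TPM in KO. The regulators summed to 1085 to 1180 TPM, 732 to 783 TPM and 643 to 729 TPM in the same order. The glutathione synthesis and recycling genes summed to 1082 to 1346 TPM, 535 to 633 TPM and 423 to 459 TPM in the same order, and Gclm carried the lower KO sums. Without Gclm the class summed to 131 to 146 TPM in WT replicates 1, 5, 6 and 7 and 126 to 144 TPM in KO, which overlap, and to 291 to 320.4 TPM in the 3 set-apart WT libraries. These 3 libraries also held the most fibroblast and smooth muscle marker RNA. Of 6 lung macrophage markers, Marco was at 1569.9, 2043 and 1186 TPM there and at most 2.64 TPM elsewhere. The other 5, with Car4 at 0, summed to 5.91 to 10.4 TPM there and 9.35 to 19.3 TPM elsewhere. The part of these other markers in the antioxidant levels was not tested.

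**Figure D5:**
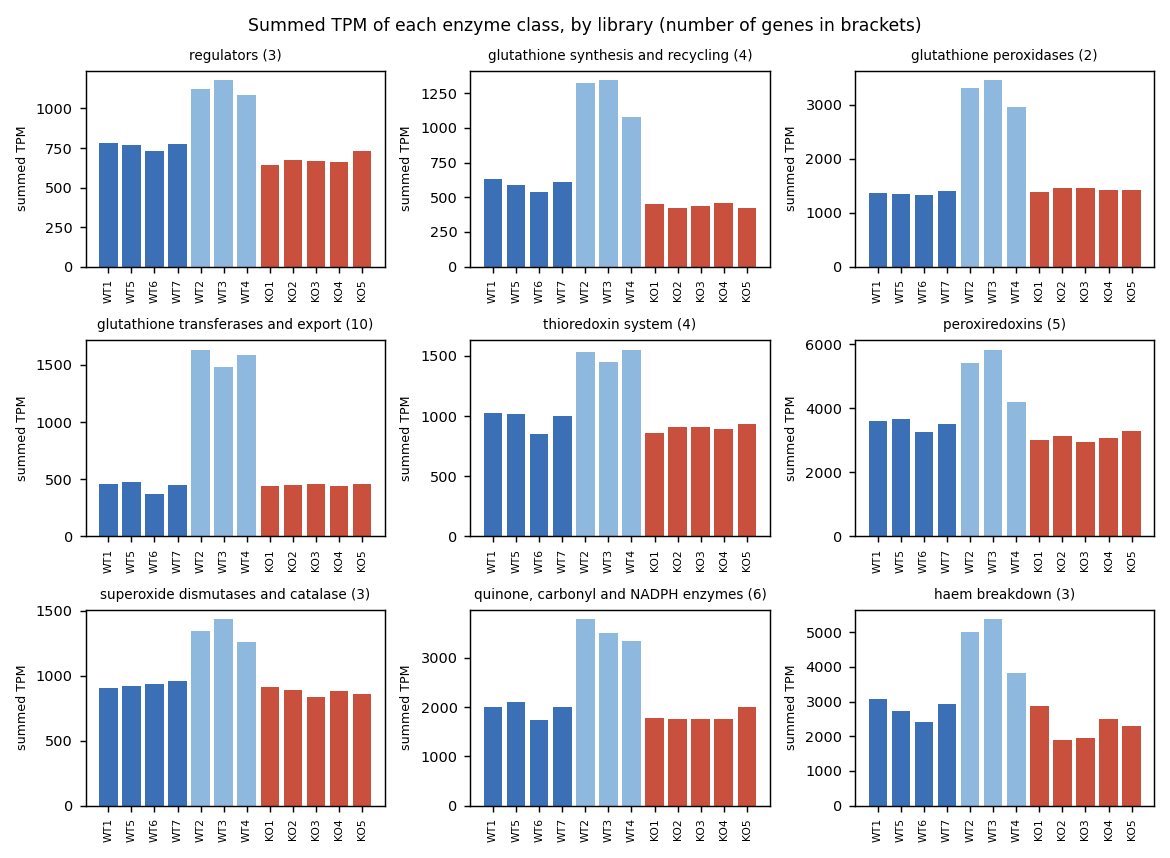
Summed TPM of the members of each enzyme class in each library, with WT replicates 1, 5, 6 and 7 in dark blue, WT replicates 2, 3 and 4 in light blue and KO in red. Glutathione transferases sum to 1481 to 1636 TPM in WT replicates 2, 3 and 4 and to 371 to 470.4 TPM in the other 9 libraries.

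A further 61 genes of the same pathways were listed for context, of which 60 were in the table and 50 were tested. Without the 3 set-apart WT libraries, 2 rose and 0 fell (1.61% and 0.717% of all genes). At an unadjusted p under 0.05, 11 had positive and 10 negative log2 fold changes, where 1633 and 478 of all 11152 tested genes did (18.9% in either direction). With 12 libraries 0 were called by limma, and 9 of the 50 had an unadjusted p under 0.05, where 17.5% of all tested genes did. Their median log2 fold change was 0.06 with 9 libraries. G6pdx, the glucose-6-phosphate dehydrogenase that supplies NADPH, rose by 0.30 on the log2 scale, with 139 ± 2.92 TPM (SD, n = 4) in WT and 171 ± 11.3 TPM (SD, n = 5) in KO (adjusted p 0.0175 by limma). Gstm4, a further mu-class transferase, rose from 6.10 ± 0.324 to 7.73 ± 0.611 TPM (0.30, adjusted p 0.0487 by limma). The 12-library value of Gstm4 was -0.32 and that of G6pdx was 0.44 (adjusted p 0.528 and 0.185 by limma).

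Of genes that act beside the members, Slc7a11 and Bach1 were not called in KO. Slc7a11, the cystine importer that feeds glutathione synthesis, was at 1.17 to 1.96 TPM in WT replicates 1, 5, 6 and 7 and 1.06 to 1.30 TPM in KO (-0.31, adjusted p 0.160 by limma), and at 24.1 to 32.3 TPM in the 3 set-apart WT libraries. Bach1, a repressor that competes with Nrf2 at haem-responsive genes, was at 26.0 to 31.1 TPM and 29.6 to 31.9 TPM (0.12, adjusted p 0.264 by limma). Of the 50 tested genes, 22 lay above all other libraries in the 3 set-apart WT libraries and 7 lay below, where 23.6% and 25.5% of all tested genes did so.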

How the data were processed

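The authors deposited 1 table of TPM values per gene and library, made with Salmon 1.2.0 and mm10 per the submitters' processing notes. How strand was handled, the annotation and the summing to genes: not given in the sources used here. TPM keeps no depth, so no counting interval was computed, and genes that share sequence have uncertain levels. Columns were matched to labels by name, and no 2 libraries were identical. Symbols came from GENCODE M21 for 23423 of 23438 IDs.

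Tests used limma 3.58.1 (limma-trend, R 4.3.3) on log2(TPM + 1), a pseudocount of 1. The 11152 genes that reached 1 TPM in 5 libraries or more were fitted, with genotype as the only term and Benjamini-Hochberg adjustment at 0.05. This scale understates changes of low genes. The 9-library fit used the same genes. The fits were tested on simulated data. Promoter sequences came from RefSeq tables.

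The members, gene lists, marker lists (those of T cells, B cells, erythroid cells, mast cells and endothelium summed to at most 5.21, 6.84, 3.60, 6.96 and 51.1 TPM in any library), tests and sets of libraries were chosen with earlier results of these data known. Named with full values were members called in either fit, members more than 4-fold above the other 9 libraries in all of WT replicates 2, 3 and 4, and the most abundant member of each class. Gss, Gsr, Mgst3, Gstp1 and others are given by range. The pathway genes named beside those called were chosen after their values were seen. Alternatives were another pseudocount, other filters, median-ratio scaling, no trend, a replicate block, a submission number covariate and leaving out libraries.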

Additional observations from a re-analysis of the deposited data

Results flagged for a closer look

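In 5 of the 80 groups examined (40 members, each in WT and KO), 1 library lay far from the rest of its group, where chance alone gives about 1 group in 20. All 5 were KO libraries. The rule sets the gap of a library against the range of its group, and the 3 set-apart libraries widen the WT range for most members. A single WT library could therefore hardly be flagged, so the rule cannot compare the genotypes. Gss was 15.95 TPM in KO replicate 1, the highest, against 14.4 to 14.8 TPM in the others. Gsr was 65.04 TPM in KO replicate 5, the lowest, against 78.1 to 83.7 TPM. Gpx1 was 720.48 TPM in KO replicate 5, the lowest, against 775 to 797 TPM. Prdx2 was 161.21 TPM in KO replicate 1, the lowest, against 170.7 to 173 TPM. Esd was 1934.35 TPM in KO replicate 5, the highest, against 1682 to 1726 TPM. Without KO replicate 5, the 9-library fit called 3 members higher, Gsr, Gpx1 and Mgst3, and 245 of all tested genes in either direction.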

How the results depend on the processing

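With 12 libraries, the count of members lower in KO (1, Gclc) became 0 without the trend, with the replicate block and with the submission number covariate (numbers 1 to 5 against 6 to 12, which no label names as a batch), and 9 without WT replicates 2, 3 and 4 together. Calls over all genes in either direction were 14 in the main 12-library fit and 10, 0, 3 and 260 in the same order. The count of members lower was 0 to 1 with any library left out, and 0 members were higher. With 9 libraries the count of members lower (9) was 5 with no filter, 5 without the trend, 5 with the submission covariate, 0 with the replicate block and 0 in the 4 libraries of the shared numbers without a block. Calls over all genes in either direction were 260 in the main 9-library fit and 180, 214, 132, 0 and 0 in the same order. The count of members lower ranged from 3 to 11 with a further library left out. The count of members higher (0) was 1 with a minimum of 5 TPM and 0 to 3 with a library left out. Gclm, Blvrb, Cbr2, Gsta3 and Gclc kept their calls with no filter, without the trend and with the submission covariate, where Txnrd1, Cat, Prdx5 and Sqstm1 lost theirs.

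With 12 libraries Prdx5 was at 0.00, ran from -0.12 (without WT replicate 4) to 0.07 with a library left out, and turned positive in 8 settings: 0.13 with the replicate block, 0.13 in the same 10 libraries without it, 0.03, 0.06, 0.07 and 0.04 without WT replicates 1, 5, 6 and 7, and 0.03 and 0.02 without KO replicates 2 and 3. The cause was not tested. Median-ratio scaling called 133 genes lower and 73 higher over the whole table, in place of 80 and 180, and 10 members lower. Same-numbered WT and KO libraries had deviations that correlated across genes at 0.273, 0.173, 0.114, -0.199 and -0.233, and only WT replicate 1 correlated best with its own number. The WT deviations were taken from the mean of WT replicates 1 to 5, which includes the 3 set-apart WT libraries. This check therefore cannot decide whether the numbers are pairs, and the main fits did not use them as pairs. Depth is unknown, which limits low genes such as Gsta4 and Nqo1 most.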
